A study of Mus musculus with 9 samples.

Results

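Fatty acid oxidation enzymes were followed as a set of 29 genes among the 55416 genes of a brown fat RNA-seq count table. The genes were chosen by function: activation of fatty acids, the carnitine shuttle, mitochondrial beta-oxidation with its electron carriers, and peroxisomal beta-oxidation. All 29 symbols matched 1 Ensembl mouse identifier each. RNA came from interscapular brown adipose tissue of Cas9-expressing C57BL/6J mice, aged 8 to 10 weeks, into whose brown fat an AAV8 vector (an adeno-associated virus) with a guide RNA had been injected. The labels give 5 samples of AAV8-Control sgRNA and 4 of AAV8-UCP1 sgRNA, all taken after 14 days at 22 °C. What drives Cas9 expression in these mice was not stated in the labels.

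The 9 value columns of the table are headed by a number and the abbreviation BAT. These names show the tissue and neither the sample nor the guide, so each column was used as 1 library of brown fat with no guide assigned, and no comparison between the guides was made. Libraries are lettered A to I by the size of the number in their heading, and the letters carry no meaning beyond that. Every range below therefore pools both guides, and spread between libraries can hold differences between guides as well as between animals. Levels are CPM, the count of a gene scaled to a column sum of 1000000. Totals ran from 15460829 to 17909534 counts. Transcripts of the mitochondrial genome took 22.3% to 33.9% of a library. All 8 brown adipocyte markers had counts in every library, and they summed to 4174 CPM in library E and 8316 CPM in library C. That sum includes Ucp1, at 396 CPM in library E and 4620 CPM in library C, so its range mostly follows Ucp1. Highest over lowest library ran from 1.38-fold for Cidea, at 1265 to 1749 CPM, to 5.50-fold for Elovl3, 8.41-fold for Ppargc1a and 11.7-fold for Ucp1, the gene the guide targets. The 9 skeletal muscle markers summed to 222 CPM in library C, a median of 1168 CPM and 4383 CPM in library F. In bulk tissue, fewer cells of a type and less RNA per cell cannot be told apart.

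Beta-oxidation shortens a fatty acid by a 2-carbon unit per round. A long-chain fatty acid is first joined to coenzyme A, passed to carnitine by a CPT1 enzyme on the outer mitochondrial membrane, and handed back to coenzyme A by CPT2 inside. Each round then runs through a dehydrogenase, a hydratase, a second dehydrogenase and a thiolase, and electrons leave through the electron transfer flavoprotein. Peroxisomes run a parallel route for very long and branched chains. In brown fat this oxidation supplies the respiratory chain whose proton gradient the uncoupling protein UCP1 releases as heat.

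Members of the set differed widely in level. Per kilobase of principal transcript, the scale on which genes are compared below, the medians ran from 0.0217 CPM per kilobase for Acsl6 to 983 for Acadl, with Hadhb at 925, Acadm at 838 and Acaa2 at 831. Together they took 1.94% of the counts in library F, a median of 2.27%, and 2.59% in library H. As shares of reads, which grow with transcript length, the hydration-to-thiolysis enzymes summed to a median of 7568 CPM, the acyl-CoA dehydrogenases to 5650 CPM and the acyl-CoA synthetases to 3763 CPM. The 5 peroxisomal enzymes summed to a median of 693 CPM. Of the 29 genes, 28 had a mean of at least 1 CPM, and 20 a mean of at least 100 CPM.

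**Figure D1:**
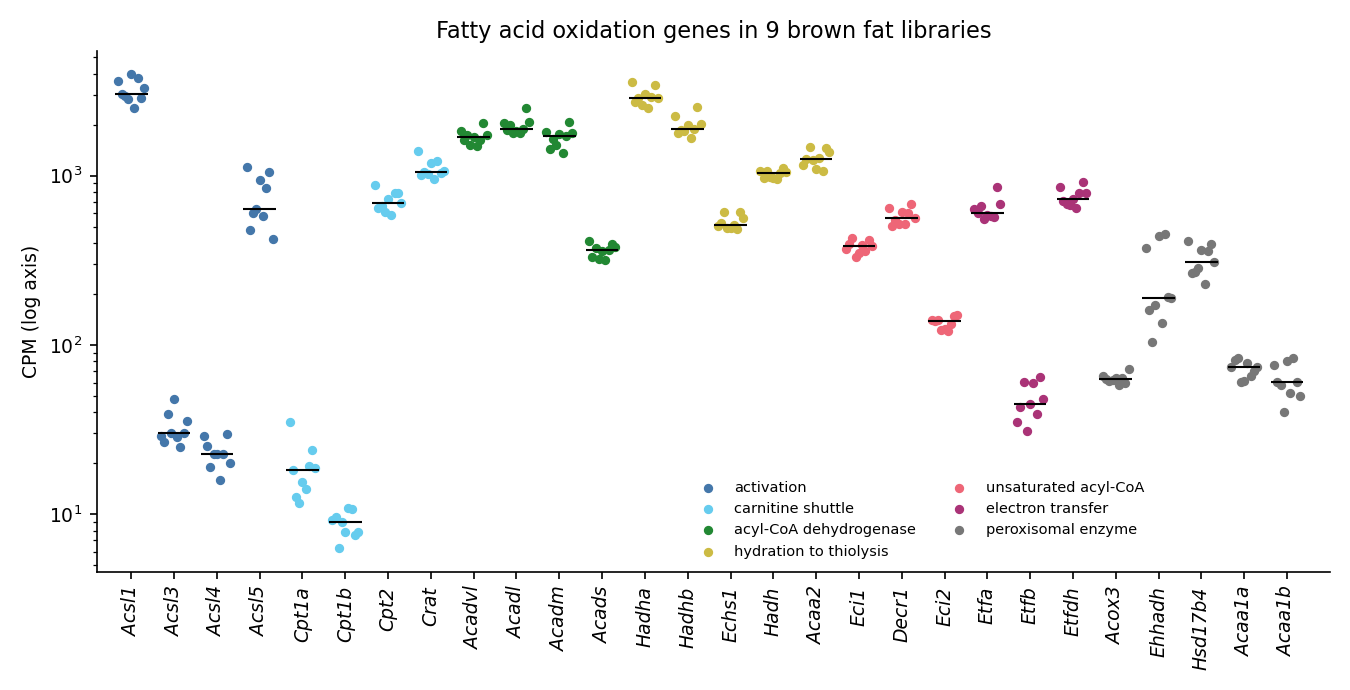
CPM of 28 fatty acid oxidation genes (log axis, genes ordered and coloured by role) in each of the 9 libraries (points), with the median as a line; Acsl6, at 0 to 10 counts, is left out. Acsl1 and Hadha lie highest, with medians of 3030 and 2871 CPM, and Cpt1b lies lowest, with a median of 9.01 CPM.

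Upstream DNA is shown for the members whose values the results turn on: the trifunctional protein pair, and Ehhadh, Acsl5 and Cpt1a, which varied most between libraries. The stretches come from RefSeq's GRCm38.p6 promoter windows, which is an older build than the GRCm39 named for the counts, and 24 of the 29 members matched a window. Capitals mark the motifs searched, in either orientation on both strands: the nuclear receptor motif AGGTCA, the box CCAAT, the GC box GGGCGG and the TATA box TATAAA. None of these overlapped another in the stretches shown. The RefSeq starts of Acsl5 and Cpt1a lie 1431 and 967 bases inside the GENCODE genes, which have transcripts that begin further upstream, so these stretches precede 1 of several annotated starts.
Hadha to Hadhb, chr5:30155163-30155247, plus strand: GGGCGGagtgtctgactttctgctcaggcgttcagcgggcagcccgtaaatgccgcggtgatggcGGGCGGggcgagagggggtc
Ehhadh, chr16:21787835-21787984, minus strand: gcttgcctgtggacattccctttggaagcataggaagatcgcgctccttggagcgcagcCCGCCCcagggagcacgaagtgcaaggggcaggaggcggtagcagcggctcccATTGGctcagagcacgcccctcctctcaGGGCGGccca
Acsl5, chr19:55253219-55253368, plus strand: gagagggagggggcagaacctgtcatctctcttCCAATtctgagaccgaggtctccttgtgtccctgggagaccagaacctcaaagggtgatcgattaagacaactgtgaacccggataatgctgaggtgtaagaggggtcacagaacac
Cpt1a, chr19:3323151-3323300, plus strand: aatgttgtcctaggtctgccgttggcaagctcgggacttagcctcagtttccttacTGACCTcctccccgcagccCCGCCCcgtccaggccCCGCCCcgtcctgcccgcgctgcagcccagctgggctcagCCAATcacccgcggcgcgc
Hadha and Hadhb are transcribed away from each other, and their GENCODE gene starts are separated by the 85 bases printed, 69.4% of them G or C. Over the 250 bases upstream of each RefSeq start, GGGCGG was found for 17 of the 24 members and in 32.7% of all 32851 windows. CCAAT was found for 13 of the 24 and in 33.8% of all windows, and AGGTCA for 5 (Acsl6, Cpt1a, Acadvl, Acadm and Echs1) and in 14.0%. TATAAA was found for 0 of the 24 and in 12.4% of all windows. A member was counted if any of its windows held the motif, while the percentages are of single windows. The counts and the percentages are therefore not like shares. The matches describe letters only.

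Among the acyl-CoA synthetases, which activate fatty acids, Acsl1 was the most abundant by CPM and per kilobase of transcript. It ran from 2525 CPM in library F through a median of 3030 CPM to 3962 CPM in library E. Acsl5 lay lower, at a median of 150.5 against 777 CPM per kilobase, and varied more, with 1124 CPM in library A, 480 in B, 599 in C, 639 in D, 941 in E, 578 in F, 851 in G, 1048 in H and 420 in I. Its values left a gap between 639 and 851 CPM, with 5 libraries below and 4 above. The ratio of Acsl5 to Acsl1, which no library scaling can change, ran from 0.128 in library I to 0.364 in library H, a 2.85-fold range. Acsl3, with 25.0 to 47.7 CPM, and Acsl4, with 16.0 to 29.9 CPM, were at a low level throughout. Acsl6 had 0 to 10 counts, with 3 libraries at 0 (a count of 0 allows up to 0.168 to 0.194 CPM at these depths), and its 10 counts were in library F, the library with the most skeletal muscle marker RNA; the part of muscle in that count was not tested.

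In the carnitine shuttle, Cpt2 and the carnitine acetyltransferase gene Crat were abundant and both CPT1 genes were low, at medians of 290.5 and 248.5 against 4.20 CPM per kilobase for Cpt1a and 3.11 for Cpt1b. Cpt2 ran from 589 to 877 CPM with a median of 689 CPM, and Crat from 950 to 1399 CPM with a median of 1050 CPM. Cpt1a encodes the form known best from liver, and it had 35.3 CPM in library A, 18.1 in B, 12.6 in C, 11.6 in D, 15.5 in E, 14.0 in F, 19.2 in G, 23.9 in H and 18.9 in I. Library A was 3.03-fold above library D. Cpt1b encodes the form known best from muscle and brown fat, and it had 9.31 CPM in library A, 9.63 in B, 6.31 in C, 9.01 in D, 7.87 in E, 10.9 in F, 10.7 in G, 7.54 in H and 7.88 in I. Cpt1b was below Cpt1a in all 9 libraries by CPM, at 102 to 185 counts against 199 to 625.

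The order of the CPT1 pair depended on the length used. By counts Cpt1b made up a median of 33.7% of the pair, from 20.9% in library A to 43.8% in library F. Per kilobase of the principal transcript (2895 bases for Cpt1b, 4317 for Cpt1a) its median was 43.1%, and in 2 libraries it passed 50%. In GENCODE vM21, exons of the protein-coding gene Gm44502, on the same strand of chromosome 15, cover 94.8% of the Cpt1b transcript and leave 151 bases uncovered. Gm44502 had 0 counts in all 9 libraries. With the whole Cpt1b count divided by the 151 uncovered bases alone, Cpt1b made up a median of 93.6% of the pair. That scale takes all Cpt1b reads to lie in the uncovered bases, and where the reads lie was not tested. How the authors' counting treated reads under exons of 2 genes is not stated in the labels, and the part of this overlap in the low Cpt1b count was not tested. The Cpt1b count, and every share built on it, is therefore uncertain.

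Cpt1b also stood highest and lowest in the libraries with the most and the least skeletal muscle RNA. Library F, with 4383 CPM of muscle markers, had 10.9 CPM of Cpt1b, and library C, with 222 CPM of muscle markers, had 6.31 CPM. The libraries between did not follow this order throughout: library I had the second most muscle RNA, at 2712 CPM, with 7.88 CPM of Cpt1b. All 9 muscle markers were highest in library F and lowest in library C, and the part of muscle in Cpt1b was not tested.

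**Figure D2:**
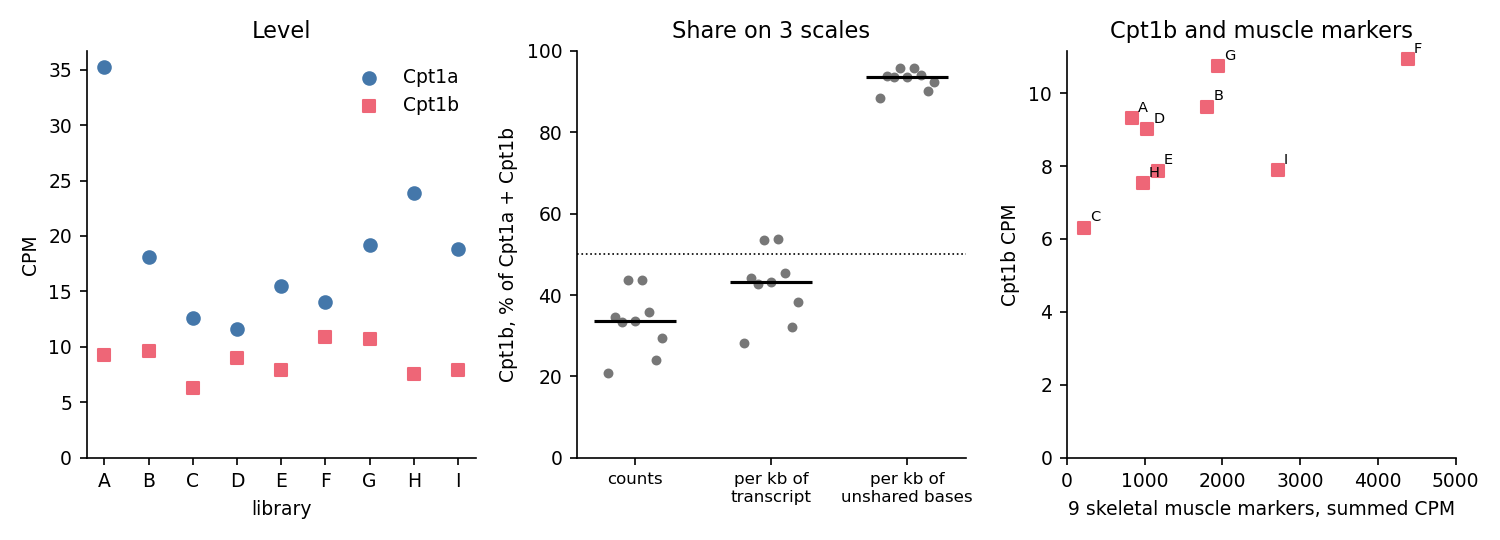
Left, CPM of Cpt1a (circles) and Cpt1b (squares) by library; middle, Cpt1b as a percentage of the pair in each library (points, median as a line) on the scales of counts, counts per kilobase of transcript, and counts per kilobase not covered by a same-strand exon of another gene; right, Cpt1b CPM against the summed CPM of 9 skeletal muscle markers. Cpt1a lies above Cpt1b in each library at left, and the median share moves from 33.7% to 43.1% and 93.6% across the scales.

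The acyl-CoA dehydrogenases take the first step of each round, and their sum in library H was 1.41 times that in library F. Acadl, for long chains, ran from 1776 to 2518 CPM with a median of 1883 CPM. It had the highest median per kilobase of the set. Acadvl, for very long chains, ran from 1497 to 2036 CPM, and Acadm, for medium chains, from 1353 to 2068 CPM. Acads, for short chains, ran from 316 to 408 CPM and was lower per length, at a median of 194 CPM per kilobase against 776 for Acadvl and 838 for Acadm. The ratio of Acadl to Acadvl stayed between 1.09 and 1.24. Exons of Dvl2 on the opposite strand cover 45.0% of the Acadvl transcript, and Dvl2 had 93 to 180 counts; the labels do not state whether counting used the strand.

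Hadha and Hadhb encode the alpha and beta subunits of the mitochondrial trifunctional protein, which carries out the later steps for long chains. Hadha ran from 2498 CPM in library F through a median of 2871 CPM to 3588 CPM in library A, and Hadhb from 1661 CPM in library F through 1894 CPM to 2554 CPM in library H. The ratio of Hadha to Hadhb CPM lay between 1.34 and 1.60, an SD of 0.08 on the log2 scale over the 9 libraries. Of the 190 pairs among the 20 members at 100 CPM or more, 12 had a steadier ratio; the steadiest was Acadl with Etfa, at an SD of 0.05. Of the 50-base stretches of the Hadhb transcript, 62.4% also occur in transcripts of another gene, most of them the processed pseudogene Gm13910, which had 466 to 1044 counts, so the Hadhb count is uncertain to that extent. Of the enzymes for shorter chains, Echs1, a hydratase, ran from 483 to 613 CPM, Hadh, a dehydrogenase, from 951 to 1109 CPM, and Acaa2, a thiolase, from 1066 to 1474 CPM. Hadh was the steadiest member at 100 CPM or more, with an SD of 0.08 on the log2(CPM + 0.5) scale, and 0.864% of the 1158 other genes at that level had a smaller SD.

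The enzymes for unsaturated chains summed to 970 to 1247 CPM, a 1.285-fold range. Eci1, a mitochondrial enoyl-CoA isomerase, ran from 332 to 428 CPM, and Decr1, a dienoyl-CoA reductase, from 507 to 680 CPM. Eci2, an isomerase found in both compartments and counted in neither below, ran from 122 to 150 CPM.

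Of the electron carriers, Etfa and Etfdh were abundant and Etfb was far below, at medians of 431, 306 and 50.4 CPM per kilobase. Etfa, for the alpha subunit of the electron transfer flavoprotein, ran from 556 to 851 CPM with a median of 600 CPM, and Etfdh, for the enzyme that passes the electrons to ubiquinone, from 641 to 916 CPM. Etfb, for the beta subunit, had 31.0 CPM in library D, a median of 45.0 CPM and 65.0 CPM in library H. The protein holds 1 alpha and 1 beta subunit, yet the ratio of Etfb to Etfa CPM lay between 0.0546 and 0.102, and their principal transcripts are 893 and 1392 bases long. Same-strand exons of another protein-coding gene, Gm45233 on chromosome 7, cover 69.1% of the Etfb transcript. Gm45233 had 0 counts in all 9 libraries. Etfb and Cpt1b were the 2 members with 50% or more of the transcript under same-strand exons of another gene; the next highest was Acsl3 at 5.2%, and the part of the overlap in these counts was not tested.

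The peroxisomal enzymes were a small and uneven share. The 18 mitochondrial members summed to 15601 to 20977 CPM, a 1.34-fold range, and the 5 peroxisomal members to 553 to 1022 CPM, a 1.85-fold range. The peroxisomal share of both was 4.87% in library A, 3.69% in B, 3.16% in C, 3.70% in D, 5.44% in E, 3.42% in F, 5.55% in G, 3.59% in H and 3.69% in I. Libraries A, E and G thus stood above the other 6. Per kilobase of transcript the share ran from 2.72% to 4.65%.

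Ehhadh, the peroxisomal bifunctional enzyme, carried most of that spread. It had 373 CPM in library A, 161 in B, 104 in C, 171 in D, 437 in E, 134 in F, 453 in G, 193 in H and 190 in I. Libraries A, E and G lay between 373 and 453 CPM, and the other 6 between 104 and 193 CPM. Its SD of 0.77 on the log2(CPM + 0.5) scale was the widest of all 29 members, where counting error alone gives 0.02. Without Ehhadh the peroxisomal share ran from 2.61% to 3.17%, a 1.22-fold range, in place of 1.76-fold with it. Hsd17b4, the other multifunctional enzyme of peroxisomes, ran from 230 to 411 CPM, and the ratio of Ehhadh to Hsd17b4 from 0.384 in library C to 1.27 in library G.

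The other peroxisomal members lay under 100 CPM. Acox3, an oxidase for branched chains, was steady at 58.3 to 71.8 CPM. The thiolase genes Acaa1a, at 60.8 to 83.9 CPM, and Acaa1b, at 40.1 to 83.2 CPM, share sequence: 34.0% of the 50-base stretches of the Acaa1a transcript occur in another gene, most of them in Acaa1b, so reads can be split or dropped between them. Their ratio still moved, from 0.660 Acaa1b per Acaa1a in library D to 1.31 in library E. Acaa1b was above Acaa1a in libraries A, E and G, at ratios of 1.02, 1.31 and 1.27, and below it in the other 6. In library A the counts were 1353 and 1320, a difference within counting error, so the order there is open.

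**Figure D3:**
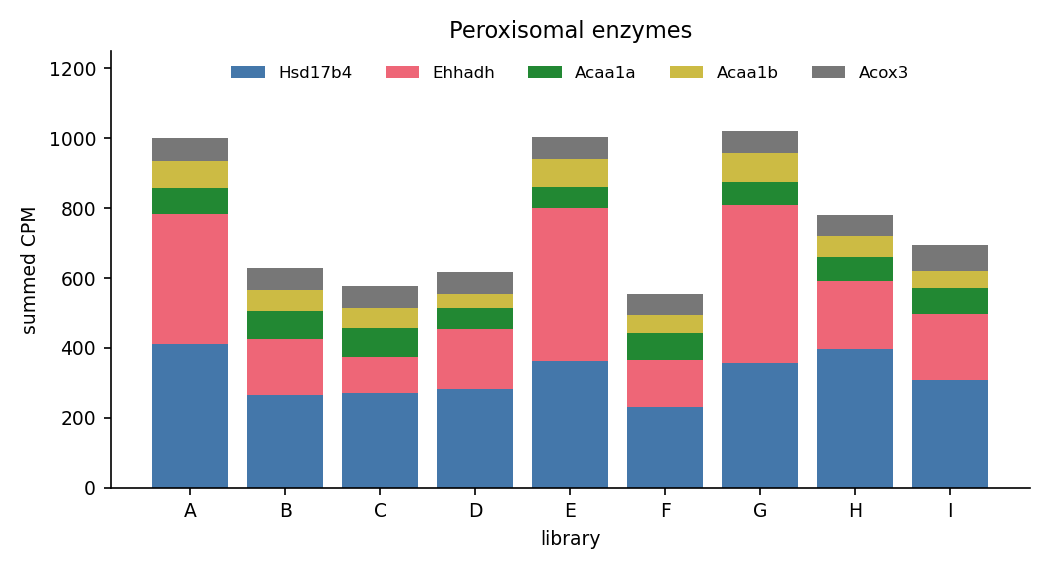
CPM of the 5 peroxisomal members in each library, stacked and adding up to the summed CPM (axis from 0), in the order of the letters. Ehhadh makes up 18.0% of the bar in library C and 44.3% in library G.

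Spread between libraries differed between members. The highest library was under 1.5 times the lowest for 15 of the 29, and over 2 times for 5 (Acsl5, Cpt1a, Etfb, Ehhadh and Acaa1b), with Acsl6 left out because 3 libraries were at 0. Such counts were not made over all genes, so they describe the members only. For all 20 members at 100 CPM or more the SD on the log2(CPM + 0.5) scale was over 2 times what counting error gives, as it was for all 1158 other genes at that level, so this is no property of the members. Of the 20 members at 100 CPM or more, 16 had an SD under 0.20, the median of the 1158 other genes at that level; their own median was 0.17. Lowest and highest values were unevenly spread over the libraries, in the members and in other genes. Of the 28 members at 1 CPM or more, 14 (50%) were lowest in library F and 7 (25%) in library D, against 15.1% and 22.1% of the 12232 other genes at that level. In library H 10 members (35.7%) were highest and in library A 7 (25%), against 15.9% and 17.3% of other genes. Members share libraries and were not counted as independent, so these shares carry no test. Library F also had the most muscle RNA and the largest share of mitochondrial-genome transcripts, 33.9%, while library H had 24.9% and library A 22.3%. The summed CPM of the set differed 1.33-fold between libraries H and F, and 1.17-fold when mitochondrial-genome transcripts were left out of the column sum; the part of muscle RNA in this was not tested.

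**Figure D4:**
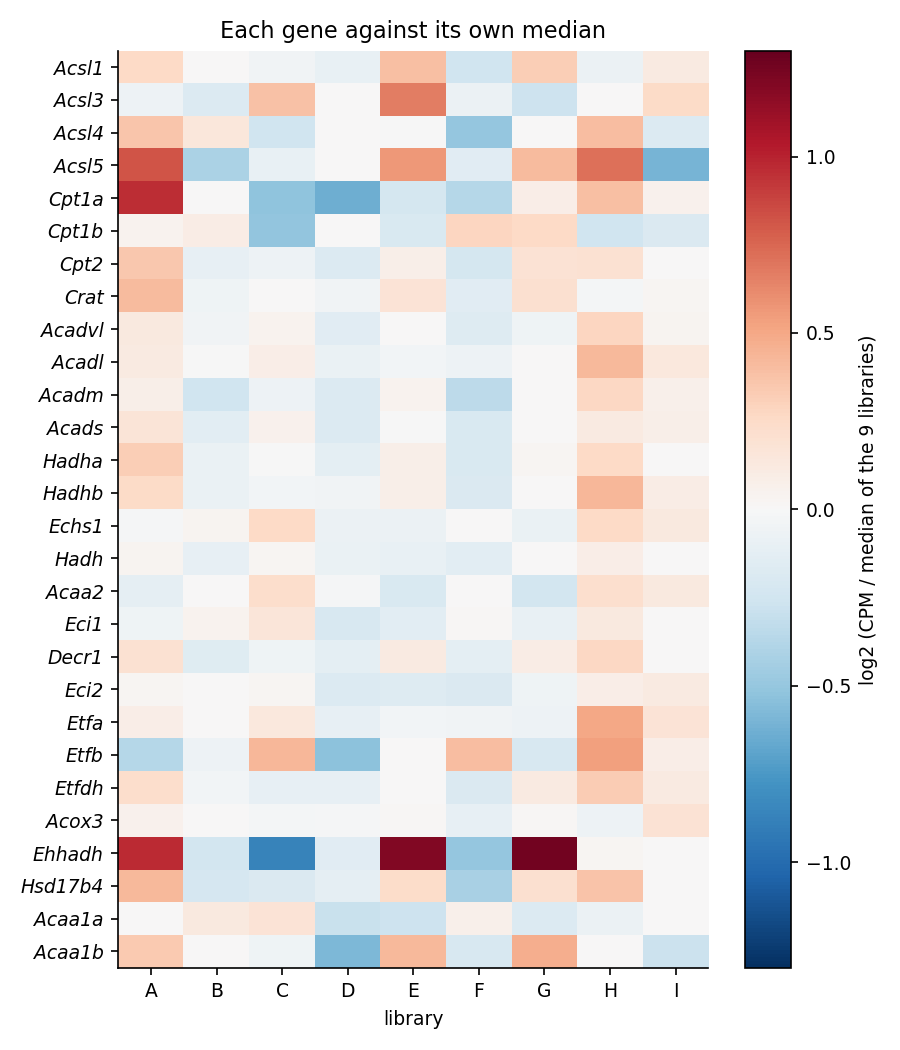
Log2 ratio of each member's CPM to its own median over the 9 libraries (colour; red above, blue below), genes by role and libraries by letter; Acsl6 is left out. Most rows are pale, and Ehhadh, from 104 to 453 CPM around a median of 190 CPM, Acsl5 and Cpt1a show the strongest colours.

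Correlation of the members with Ucp1 was planned and is not given. Ucp1 values fell into separate ranges, with 5 libraries from 2704 CPM upwards and 4 at 606 CPM or below. With such ranges a pooled coefficient would mostly compare the ranges. Within the ranges, of 5 and 4 libraries, no coefficient was computed either. Ucp1 is also the gene the guide targets, so libraries were not grouped by it.

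Other genes of the pathway were expressed alongside. All 30 genes of a list of transporters, regulators and further enzymes had a median of at least 1 CPM, and 16 of them of at least 100 CPM. In 10 the highest library was over 2 times the lowest. By mean, 1178 of all 55416 genes reached 100 CPM. Counts by median or by range were not made over all genes, so those above describe the list only. Acacb, whose product makes the malonyl-CoA that inhibits CPT1, ran from 1524 to 2544 CPM, and Mlycd, whose product removes malonyl-CoA, from 88.2 to 163 CPM. Slc25a20, the carnitine-acylcarnitine carrier of the inner membrane, ran from 373 to 558 CPM. Ppargc1a, a coactivator of oxidation genes, ran from 46.7 CPM in library I to 392 CPM in library E, the widest range of the list at 8.41-fold.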

How the data were processed

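RNA of 9 interscapular brown fat samples was sequenced. The deposited file gives raw counts, 1 row per Ensembl gene; FastQC, STAR, DESeq2 and GRCm39 are named per the submitters' processing notes, without versions; annotation release, strand use and counting mode were not stated. The 9 columns were tied to the tissue by name and to no guide. Depth was 15460829 to 17909534 counts. No 2 of the 36 pairs of columns were identical, and the closest differed by a chi-square of 9.99 per degree of freedom.

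Counts were divided by the column sum (CPM) in Python 3.11.15; log2 values used a pseudocount of 0.5. All 29 members are named. No comparison between groups was tested, since no groups could be formed; Dixon's limit for an end value was applied to members and ratios. Values are therefore given per library or as lowest, median and highest. Alternative scalings used edgeR 4.0.16 and DESeq2 1.42.0. Symbols were matched for 52083 of 55416 identifiers. Lengths, overlaps and shared 50-base stretches came from GENCODE vM21 (GRCm38) for the longest APPRIS principal transcript. The spread measure was tested on simulated data. Members and lists were chosen with earlier results of these data known.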

Additional observations from a re-analysis of the deposited data

Results flagged for a closer look

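In library H, 2 members stood above the other 8 libraries. Acadl reached 2518 CPM there and 2071 CPM in the next library, a gap of 0.603 of the whole range. Etfa reached 851 CPM there and 679 CPM in the next, a gap of 0.583 of the range. The limit for 9 libraries is 0.493, which chance passes in about 1 of 20 sets of values; 28 members and 11 ratios were examined, so as many values past it can arise by chance. The ratio of these 2 genes to each other was the steadiest of all pairs at 100 CPM or more.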

How the results depend on the processing

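Cpt1b as a share of the CPT1 pair, a median of 33.7% by counts, was 43.1% per kilobase of principal transcript, 53.6% per kilobase of all exons and 93.6% per kilobase of uncovered transcript; the latter 2 scales were chosen after seeing the data, and the lengths alone make these differences. The peroxisomal share, a median of 3.69%, was 2.08% without Hsd17b4, since fewer genes are summed. Leaving out each library in turn gave 33.5% to 34.2% for the first share, 3.69% to 3.70% for the second, and 1.27 to 1.33 for the ratio of the set's highest to lowest summed CPM. That ratio, 1.33, was 1.25 with TMM factors, 1.24 with size factors, and 1.17 without mitochondrial-genome transcripts in the column sum, chosen after seeing the data. For single members, highest over lowest moved by less than 1 SD in all 28 under TMM, size factors and a column sum without Ucp1, and in 18 without mitochondrial-genome transcripts; the largest change was 1.18 times. Other settings for a correlation with Ucp1 were not run, because no coefficient was computed. No paired analysis was possible: the labels give no pairing, since the guides share no replicate number, and the column headings hold no replicate numbers. Depth limits Acsl6, at 10 counts or fewer.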

Other observations

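Ucp1 had 459 CPM in library A, 3848 in B, 4620 in C, 2704 in D, 396 in E, 3652 in F, 606 in G, 445 in H and 3937 in I. The largest gap between neighbouring values, from 606 to 2704 CPM, was 60.9% of the whole range on the log2(CPM + 0.5) scale. The labels tie no library to a guide, and no guide was read from these values.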
